A study of Homo sapiens with 27 samples.

Results

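The 34 genes described here are targets of p53, the transcription factor of the DNA damage response. They were taken by symbol from a list of p53 target genes and not by a cutoff on values in these libraries. The list was chosen with earlier results of these data known. They are 34 of the 60534 gene identifiers that all files share. All 34 passed the filter on low counts, so they are 34 of 13291 protein-coding genes tested in RNA and 34 of 11764 tested in ribosome footprints. By role they are 2 feedback regulators of p53, 6 genes of growth arrest, 4 of DNA repair and nucleotide supply and 5 death receptors, with 7 intracellular genes of death and survival, 6 of metabolism and redox and 4 secreted or other genes.

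The libraries came from IMR90, a line of human lung fibroblasts, labelled wild type except in the thapsigargin group, whose labels give no genotype. RNA-seq measured RNA abundance in 13 libraries, and Ribo-seq measured the mRNA fragments that ribosomes protect from nuclease in 14. Untreated cycling cells (2 RNA-seq and 3 Ribo-seq libraries) were harvested before confluence. Quiescent cells (3 and 3) were arrested by contact inhibition. Irradiated senescent cells (3 and 3) had received 15 Gy of ionizing radiation and were harvested 10 days later. Etoposide senescent cells (3 and 3) had received 3 treatments with 50 µM etoposide, a topoisomerase II poison that leaves DNA breaks, over 10 days. Thapsigargin-treated cells (2 and 2) were cycling cells given 25 nM thapsigargin, an inhibitor of the pump that loads calcium into the endoplasmic reticulum, for 3 h. A label of the thapsigargin RNA-seq libraries names ribosome-protected fragments. These libraries were taken as RNA-seq by their titles and by the strand of their counts. All cells grew in high glucose DMEM with serum and non-essential amino acids, and antibiotics are listed for all groups except the thapsigargin-treated one. The labels do not say that replicates were separate cultures, so p-values measure the spread between libraries, which may be technical.

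When DNA is damaged, kinases stabilise p53, which then binds a pair of half-sites near its targets and raises their transcription. The targets stop the cell cycle, repair DNA, adjust metabolism, kill the cell, or, as MDM2 does, destroy p53 again. In fibroblasts p53 is known for holding damaged cells in lasting growth arrest, and some of these targets also respond to other stresses.

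Gene counts, in units of 1e6, ran from 20.64 to 57.12 per RNA-seq library and from 1.937 to 20 per Ribo-seq library, of which 62944 to 185335 and 5012 to 56983 fell on the 34 genes. The summed level of 10 fibroblast markers was 1.1e+04 to 1.78e+04 CPM in RNA-seq, where 1 CPM is 1 count in each 1e6 counts of a library after TMM, edgeR's scaling between libraries. In Ribo-seq that sum was 4.12e+04 to 4.43e+04 CPM in cycling, 2.53e+04 to 5.35e+04 in quiescent, 2.7e+04 to 2.96e+04 in irradiated, 3.57e+04 to 3.72e+04 in etoposide and 1.33e+04 to 1.4e+04 in thapsigargin libraries, so it differed between the states whose footprints are compared. That of 5 epithelial markers was 101 to 111 CPM in the thapsigargin RNA-seq libraries and 14 to 42.2 in the others, and 159 to 165 against 14 to 59.1 in Ribo-seq, with the defining genes CDH1 and SFTPC at or near 0. KRT19 made up most of the highest sums, reaching 96.1 CPM in RNA-seq and 143 in Ribo-seq. KRT8 was at most 21.3 and 23.3 CPM, and EPCAM at most 0.754 and 1.1. The part of either list in the results was not tested. Reads were unmapped at 1.35 to 1.4% in the thapsigargin RNA-seq libraries and 27.8 to 40.6% in the other RNA-seq libraries. The thapsigargin Ribo-seq libraries had 65.2 and 66.9% of reads mapped to several places, against 19.8 to 31.9% in the other Ribo-seq libraries, and 12.6 and 11.3% of uniquely mapped reads in no gene, against 1.35 to 2.77%. Their files list other genes than the other 12 Ribo-seq files, and only shared identifiers were used. Thapsigargin and these differences in preparation cannot be told apart. In bulk RNA, fewer cells expressing a gene and less RNA per cell cannot be told apart either.

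The promoters of members were read for the p53 half-site consensus, a palindrome that is the same on both strands. A full site is a pair of half-sites with 0 to 13 bases between them and at most 2 mismatches in all. RefSeq promoter windows on GRCh38.p14, from 250 bases before to 50 after a transcription start, were given for 25 of the 34 genes, with 40 windows. A half-site without mismatch stood in 7 windows (17.5%), against 6.22% of 21573 windows of protein-coding genes, and a full site in 6 (15%) against 2.7%, the 2 kinds overlapping. The full site of MDM2 lies in overlapping windows of neighbouring starts, so it is counted more than once among the windows. Of the 25 genes, 8 held either kind (32%), against 9.72% of 15306 genes. The best match of each of the 8 genes is shown, and these genes behaved unlike each other. In RNA, MDM2, FDXR and SESN1 rose in both senescent states, and FAS separated the inducers. SESN1 and PLK2 fell under thapsigargin, and the RNA of DDB2, AEN and RPS27L was called in neither senescent state. Capitals mark the half-sites, lower case the flanks and spacers, and all are written 5′ to 3′ on the gene's strand.
MDM2 (GRCh38.p14 chr12:68808893-68808972, plus strand, before a start inside the gene): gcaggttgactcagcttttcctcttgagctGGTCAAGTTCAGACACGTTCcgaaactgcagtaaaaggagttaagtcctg
FAS (chr10:88991279-88991358, plus strand, before a start inside the gene): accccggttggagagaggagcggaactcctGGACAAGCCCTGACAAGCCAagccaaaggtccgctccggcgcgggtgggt
FDXR (chr17:74872995-74873055, minus strand): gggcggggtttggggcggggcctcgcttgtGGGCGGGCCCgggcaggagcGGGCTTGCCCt
AEN (chr15:88621276-88621339, plus strand, before a start inside the gene): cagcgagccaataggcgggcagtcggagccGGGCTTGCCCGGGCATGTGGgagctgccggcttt
DDB2 (chr11:47214979-47214999, plus strand, just after a start): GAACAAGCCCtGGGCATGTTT
SESN1 (chr6:109008998-109009067, minus strand, before a start inside the gene): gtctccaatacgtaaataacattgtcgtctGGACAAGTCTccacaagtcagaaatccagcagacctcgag
PLK2 (chr5:58460179-58460248, minus strand): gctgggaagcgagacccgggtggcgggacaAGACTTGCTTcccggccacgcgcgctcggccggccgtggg
RPS27L (chr15:63157497-63157566, minus strand): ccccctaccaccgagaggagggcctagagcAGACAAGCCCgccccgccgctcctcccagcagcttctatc
The full sites of MDM2, FAS, FDXR and AEN each had 2 mismatches and that of DDB2 had 0, while SESN1, PLK2 and RPS27L held a half-site only. A match is a description of the letters and not evidence of binding.

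Most members were higher in senescent than in cycling cells, and in RNA more of them rose after etoposide than after irradiation. In RNA, 18 members rose and 1 fell after irradiation, where 34.9% of all genes tested were called at an edgeR adjusted p under 0.05 (16.2% higher and 18.8% lower). After etoposide 25 rose and 0 fell, against 34.5% of all genes (16.8% higher and 17.8% lower). In quiescent cells 9 rose and 2 fell, against 15.6% of all genes (5.18% higher and 10.4% lower), and under thapsigargin 8 rose and 4 fell, against 24.5% (11.7% higher and 12.8% lower). The median log2 fold change of the 34 was 0.56 after irradiation, 0.73 after etoposide, 0.23 in quiescence and 0.16 under thapsigargin, where that of all genes was 0.03, 0.00, 0.02 and -0.03. These 4 comparisons share the cycling libraries. All irradiated RNA libraries were above all cycling ones for 25 members and below them for 3, where 35.3% and 32.6% of all genes separated in these ways. All etoposide libraries were above for 30 and below for 0, against 33.3% and 33.2% of all genes.

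In footprints, too, more members rose than fell against cycling cells, with a median after irradiation close to that after etoposide. There 19 members rose and 2 fell after irradiation (39.8% of all genes called, 17.2% higher and 22.6% lower), and 23 rose and 0 fell after etoposide (34%, with 16.4% higher and 17.6% lower). In quiescence 10 rose and 3 fell (21.7%, with 7.09% higher and 14.6% lower), and under thapsigargin 11 rose and 4 fell (44.4%, with 20% higher and 24.4% lower). The median member changed by 0.70, 0.67, 0.26 and 0.20 in that order, against -0.01, -0.01, 0.02 and -0.11 over all genes. Across the 34 members, Pearson's r between the RNA and footprint log2 fold changes was 0.85 after irradiation, 0.91 after etoposide and 0.89 in quiescence, with both assays made from the same lysates. Under thapsigargin it was 0.73 over 32 members, without ACER2 and TNFRSF10C, whose treated footprint libraries held 0 to 3 counts, and 22 of the 32 had the same sign in both assays.

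Of the 34 members, 18 rose in RNA in both senescent states, as 10.3% of all genes did, and 8 of those also rose in quiescence, as 2.92% of all genes did: BTG2, GADD45A, MDM2, PPM1D, SPATA18, TIGAR, TP53INP1 and ZMAT3. The cycling libraries are common to these comparisons. Over the 4 states without thapsigargin, the mean RNA level was highest after etoposide for 20 members, after irradiation for 12 and in quiescence for 2, where 26.2%, 25.5% and 20.9% of all genes were highest. It was lowest in cycling cells for 23 members and for 31% of all genes. CCNG1, DDB2, PHLDA3 and RPS27L were called in RNA in none of the 6 comparisons. Several calls against cycling cells rest on the 2 cycling RNA-seq libraries: 2 of the 11 quiescent calls, 13 of the 19 irradiated and 18 of the 25 etoposide calls passed in each of the 5 fits that left out 1 library. In footprints, with 3 cycling libraries, 10 of 13, 16 of 21 and 17 of 23 calls held. A fit without 1 cycling RNA-seq library leaves a lone library that is assumed to vary like the other groups.

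**Figure D1:**
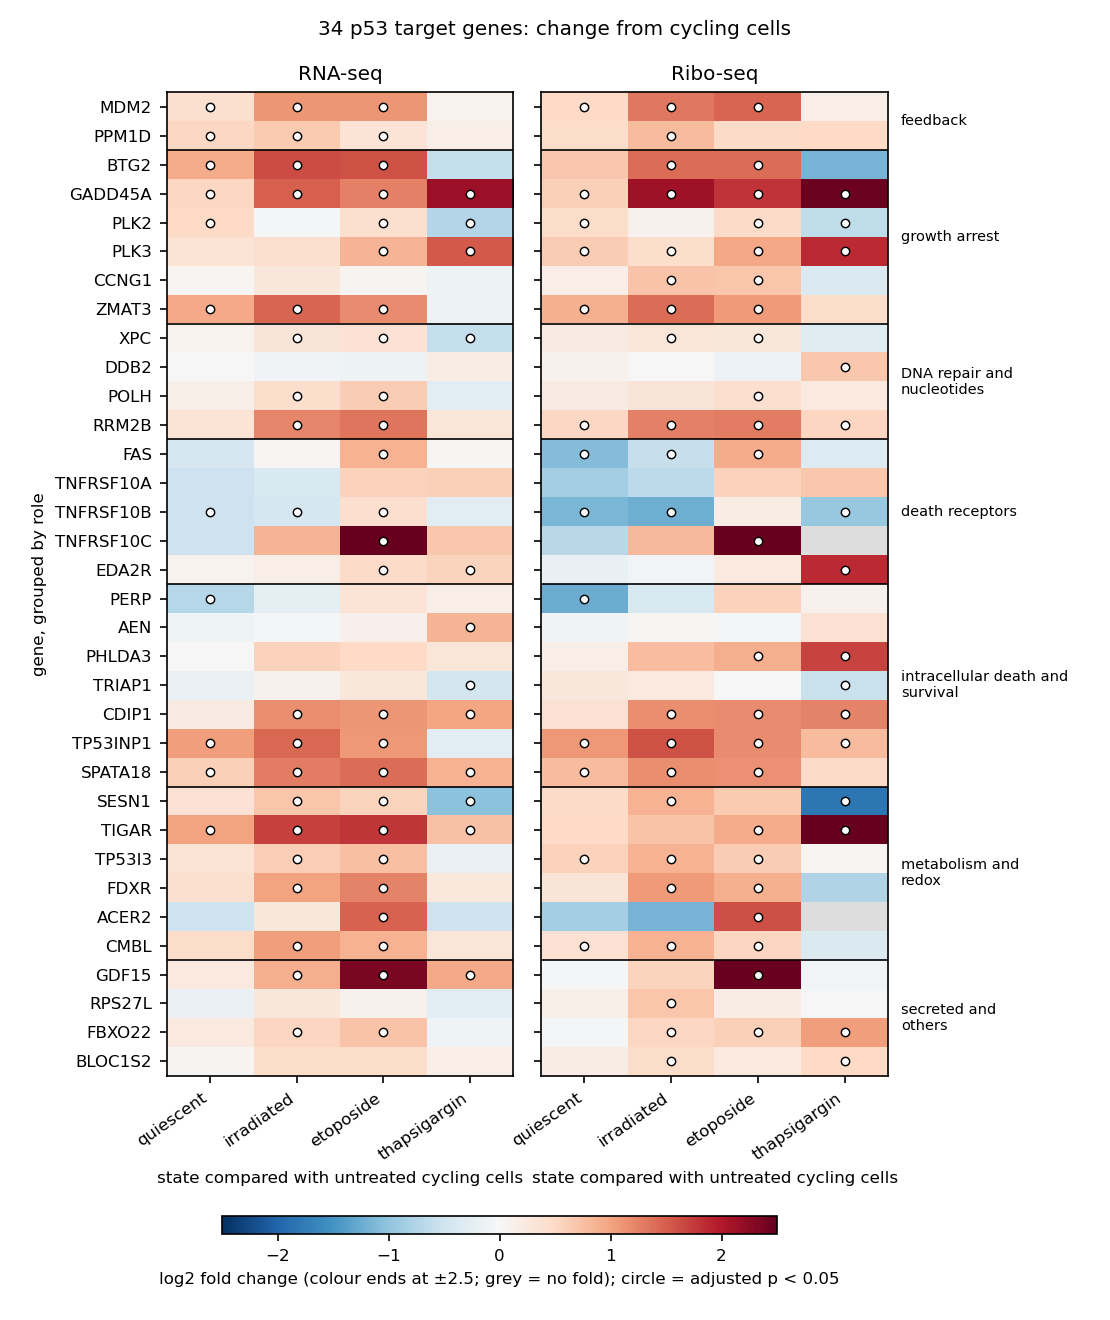
Log2 fold change of each of the 34 genes (rows, grouped by role) in 4 states against untreated cycling cells (columns), in RNA-seq on the left and Ribo-seq on the right. Red is higher and blue lower, circles mark an edgeR adjusted p under 0.05, and grey marks ACER2 and TNFRSF10C, whose thapsigargin footprint libraries held 0 to 3 counts. The irradiated and etoposide columns are red in most rows, and the death receptor rows differ between them.

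Both genes that feed back on p53 rose in RNA in all 3 arrested states, as 2.92% of all genes did. MDM2, the ligase that sends p53 to the proteasome, stood at 370 and 364 CPM in the cycling RNA libraries, 495, 462 and 509 in quiescent ones, 804, 766 and 810 after irradiation, 801, 757 and 803 after etoposide and 428 and 347 under thapsigargin. The quiescent, irradiated and etoposide libraries were all above the cycling ones, the senescent libraries were all above the quiescent, and the 2 thapsigargin libraries lay on either side of the cycling ones. MDM2 was 2.16-fold higher after irradiation (log2 1.11, SE 0.11, adjusted p = 6.94e-06), 2.15-fold higher after etoposide (log2 1.10, SE 0.11, adjusted p = 6.44e-06) and 1.33-fold higher in quiescence (log2 0.41, SE 0.11, adjusted p = 0.0212). Without cycling replicate 1 or 2 the quiescent adjusted p was 0.13 and 0.132. MDM2 footprints rose by 1.32 after irradiation, 1.46 after etoposide and 0.49 in quiescence on the log2 scale.

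PPM1D, the phosphatase WIP1 that resets the damage kinases, had 33.7 and 35.3 CPM in cycling libraries, 48.4, 45 and 53.4 in quiescent ones, 57.4, 52.5 and 54.1 after irradiation, 45.7, 42.3 and 42.8 after etoposide and 39.4 and 37.4 under thapsigargin in RNA. Its irradiated libraries were all above its etoposide ones, and the cycling libraries were below all others. The log2 fold change of PPM1D was 0.66 after irradiation (SE 0.12, adjusted p = 0.000586), 0.51 in quiescence (SE 0.11, adjusted p = 0.00969) and 0.34 after etoposide (SE 0.11, adjusted p = 0.0348). The etoposide call was lost in each of the 5 fits without 1 library (adjusted p 0.0643 to 0.195), and the quiescent one without cycling replicate 1 (0.108) or 2 (0.0585). Its footprints rose after irradiation (log2 0.80, adjusted p = 0.0364), a call lost in each of 6 such fits (0.065 to 0.0902). They were at 0.46 in quiescence and 0.48 after etoposide, which did not pass the test (adjusted p = 0.266 and 0.202).

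**Figure D2:**
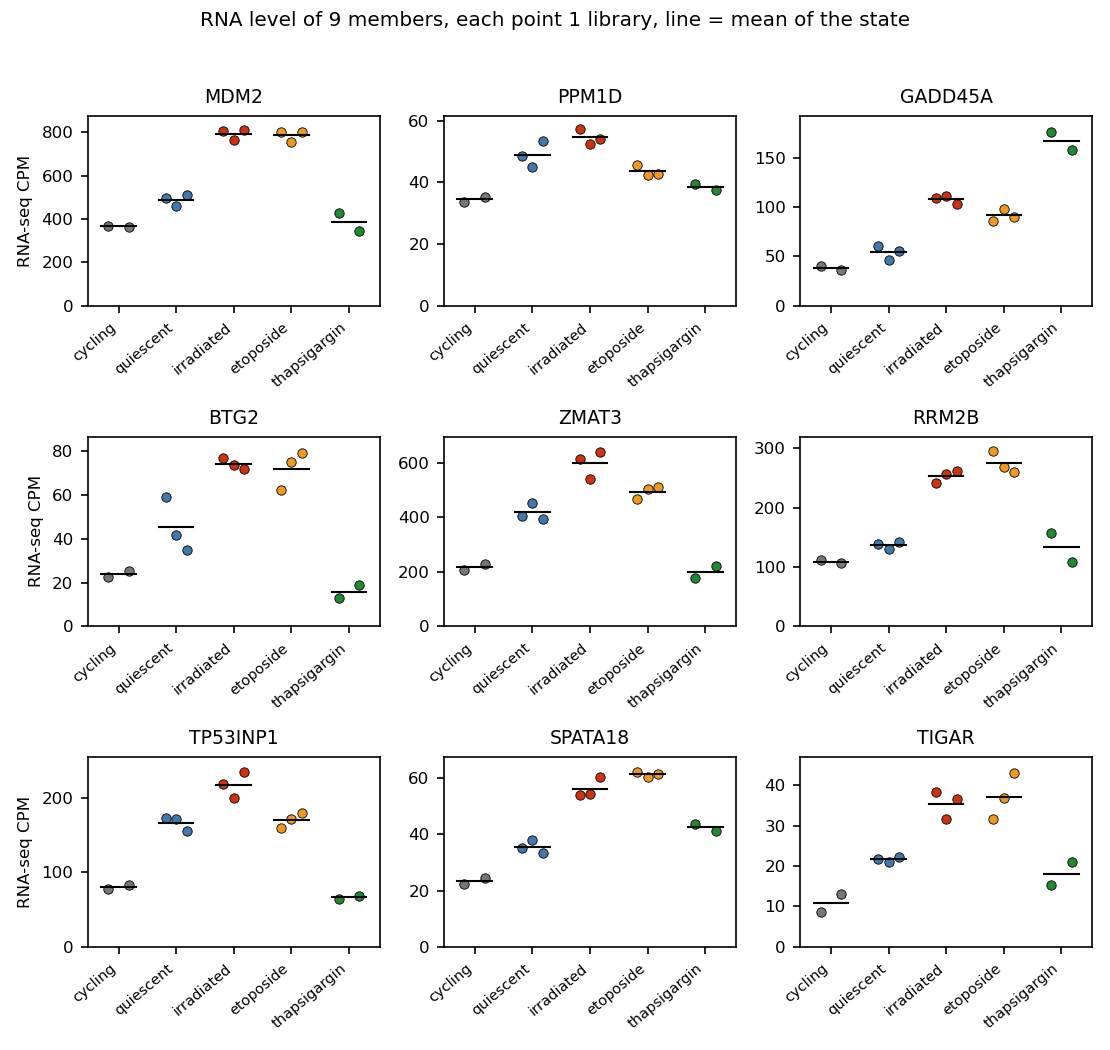
RNA level in TMM-normalised CPM (linear axes from 0) of 9 genes in each library, by state, with the mean of the state as a line. Both senescent states lie above the cycling libraries in each of the 9 panels, and in all panels except those of PPM1D and TP53INP1 also above all quiescent libraries. GADD45A is highest in the 2 thapsigargin libraries.

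Among the growth arrest genes, BTG2, GADD45A and ZMAT3 rose in both senescent states and in quiescence, while CCNG1 and the kinases PLK2 and PLK3 differed from them. BTG2, an antiproliferative adaptor of mRNA deadenylation, had 22.5 and 25.4 CPM in cycling libraries, 59.1, 41.8 and 34.9 in quiescent ones, 76.9, 73.7 and 71.9 after irradiation, 62.1, 74.9 and 79.3 after etoposide and 12.8 and 19 under thapsigargin in RNA. Every arrested library was above both cycling ones. It was 3.1-fold higher after irradiation (log2 1.63, SE 0.22, adjusted p = 8.86e-05), 3.01-fold after etoposide (log2 1.59, SE 0.22, adjusted p = 0.000101) and 1.89-fold in quiescence (log2 0.92, SE 0.22, adjusted p = 0.0118, but 0.127 without cycling replicate 1 and 0.0594 without replicate 2). Its quiescent footprint value of 0.68 did not pass the test (adjusted p = 0.0676), and passed with the replicate number as a block (0.67, adjusted p = 0.0342).

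ZMAT3, an RNA-binding zinc finger protein of p53-dependent growth suppression, stood at 207 and 228 CPM in cycling libraries, 407, 454 and 395 in quiescent ones, 613, 542 and 641 after irradiation, 467, 505 and 512 after etoposide and 179 and 220 under thapsigargin in RNA. All 9 arrested libraries were above the cycling ones, and its irradiated libraries were above the others. It rose 2.75-fold after irradiation (log2 1.46, SE 0.13, adjusted p = 2.09e-06), 2.27-fold after etoposide (log2 1.18, SE 0.13, adjusted p = 1.06e-05) and 1.93-fold in quiescence (log2 0.94, SE 0.13, adjusted p = 0.000726). ZMAT3 and TP53INP1 were the 2 members whose quiescent RNA call held in each fit without 1 library.

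GADD45A, a stress sensor that binds PCNA and cyclin-dependent kinase complexes, had 40.4 and 35.9 CPM in cycling libraries, 60.6, 46.9 and 55.7 in quiescent ones, 109, 111 and 103 after irradiation, 85.9, 98.5 and 90 after etoposide and 176 and 158 under thapsigargin in RNA. The 5 states fell in separate ranges, with thapsigargin highest. It was 2.83-fold higher after irradiation (log2 1.50, SE 0.13, adjusted p = 2.06e-06), 2.4-fold after etoposide (log2 1.26, SE 0.13, adjusted p = 7.68e-06) and 1.43-fold in quiescence (log2 0.51, SE 0.13, adjusted p = 0.0159, but 0.0634 without cycling replicate 1 and 0.152 without replicate 2). Its footprints were 64.6, 49.5 and 62.5 CPM in cycling libraries, 86.1, 85.8 and 94.1 in quiescent ones, 246, 283 and 237 after irradiation and 188, 211 and 221 after etoposide. They rose 4.34-fold after irradiation and 3.51-fold after etoposide (log2 2.12 and 1.81, adjusted p = 2.76e-08 and 7.48e-08). The footprint change exceeded the RNA change by 0.73 after irradiation on the log2 scale, which did not pass the test (adjusted p = 0.21). In a fit of only the cycling and irradiated libraries it was 0.61 and passed (adjusted p = 0.02).

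PLK2 and PLK3 are polo-like kinases of the stress checkpoints. PLK2 RNA stood at 295 and 364 CPM in cycling libraries, 521, 375 and 496 in quiescent ones, 323, 327 and 309 after irradiation, 441, 415 and 446 after etoposide and 213 and 182 under thapsigargin. The irradiated libraries lay between the 2 cycling ones and below all etoposide ones. PLK2 RNA was called higher in quiescence (log2 0.50, SE 0.15, adjusted p = 0.0345) and after etoposide (log2 0.40, SE 0.14, adjusted p = 0.048), and the value after irradiation was -0.04. The quiescent call was lost in each fit without 1 library except that without quiescent replicate 2 (adjusted p 0.0541 to 0.339). The etoposide call was lost in each except that without cycling replicate 2 (0.0741 to 0.363), and without cycling replicate 1 its log2 value was 0.25. The quiescent footprint call (0.46, adjusted p = 0.0406) was lost with the replicate number as a block (0.0565).

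PLK3 RNA stood at 21 and 17.6 CPM in cycling libraries, 25.7, 26.4 and 21.3 in quiescent ones, 26.7, 24.5 and 25.9 after irradiation, 29.5, 36.9 and 37.4 after etoposide and 48.3 and 63.9 under thapsigargin. Every arrested library was above the cycling ones and below the thapsigargin ones. It rose after etoposide (log2 0.84, SE 0.17, adjusted p = 0.00162), and the value after irradiation was 0.41 (adjusted p = 0.0692). PLK3 footprints were called higher in all 3 arrested states, by 0.64 in quiescence, 0.43 after irradiation and 0.96 after etoposide. The irradiated footprint call was lost without cycling replicate 2 (0.0777) or 3 (0.0629) and without irradiated replicate 3 (0.0799). CCNG1, cyclin G1, had 517 and 518 CPM in cycling RNA and 465 to 679 in the arrested libraries, and was called in no RNA comparison, while its footprints rose by 0.71 after irradiation and 0.69 after etoposide (adjusted p = 0.00211 and 0.00279).

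Of the repair and nucleotide genes, RRM2B moved most and DDB2 did not pass the test in either senescent state. RRM2B, the p53-dependent small subunit of ribonucleotide reductase, stood at 111 and 106 CPM in cycling libraries, 138, 130 and 142 in quiescent ones, 241, 256 and 262 after irradiation, 295, 268 and 260 after etoposide and 158 and 109 under thapsigargin in RNA. Each senescent library was above each quiescent library, and those above the cycling ones. RRM2B was 2.34-fold higher after irradiation and 2.53-fold higher after etoposide in RNA (log2 1.22 and 1.34, SE 0.14 each, adjusted p = 2.59e-05 and 1.09e-05). Its footprints rose by 1.25 and 1.27 in the same states.

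POLH, the polymerase that copies past ultraviolet lesions, had 68.1 and 60.6 CPM in cycling libraries, 72.2, 67 and 74.3 in quiescent ones, 83.2, 88.3 and 88 after irradiation, 102, 103 and 93.2 after etoposide and 55.1 and 51.2 under thapsigargin in RNA. Both senescent states lay above the cycling and quiescent libraries. The log2 fold change was 0.43 after irradiation (SE 0.11, adjusted p = 0.00745, but 0.0965 without cycling replicate 2) and 0.63 after etoposide (SE 0.11, adjusted p = 0.000554). Its footprint call after etoposide (0.42, adjusted p = 0.0325) was lost without cycling replicate 2 (0.113) or 3 (0.0757) and without etoposide replicate 2 (0.1) or 3 (0.129).

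XPC, the damage sensor that starts nucleotide excision repair, had 60.6 and 62.7 CPM in cycling libraries, 67.5, 59.7 and 70 in quiescent ones, 79.1, 76.4 and 75.2 after irradiation, 87, 71.2 and 78.7 after etoposide and 40.5 and 41.7 under thapsigargin in RNA. Both senescent states were above the cycling libraries, by less than most members. Its log2 fold change of 0.32 after irradiation (SE 0.12, adjusted p = 0.0475) lost its call in each of 5 fits without 1 library (0.0833 to 0.222), and that of 0.36 after etoposide (SE 0.12, adjusted p = 0.0297) in each except that without etoposide replicate 2 (0.0637 to 0.166). The footprint values of 0.31 and 0.28 were as easily lost, without cycling replicate 1 or irradiated replicate 2 or 3 for the first (0.0885, 0.0826 and 0.0514) and in each fit except that without etoposide replicate 1 for the second (0.0555 to 0.19). DDB2, its partner in finding ultraviolet damage, had 36.2 and 35.2 CPM in the cycling RNA libraries, 40.5, 36.7 and 30.7 in quiescent ones, 32.5, 34.9 and 34 after irradiation and 35.3, 29.7 and 32.9 after etoposide. The irradiated libraries were just below the cycling ones, and the quiescent and etoposide ones overlapped them.

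The death receptors split by inducer. FAS, the receptor of FAS ligand, stood at 37.2 and 35 CPM in cycling libraries, 23, 27.5 and 30.7 in quiescent ones, 35.2, 35.1 and 40.2 after irradiation, 67.5, 66.9 and 62.4 after etoposide and 43.7 and 29.9 under thapsigargin in RNA. The irradiated libraries overlapped the cycling ones, and the etoposide libraries were above all others. FAS RNA was 1.82-fold higher after etoposide (log2 0.86, SE 0.17, adjusted p = 0.00145), with a value of 0.03 after irradiation (adjusted p = 0.917). FAS footprints were 40.7, 45.1 and 43.1 CPM in cycling libraries, 14, 25.7 and 21.6 in quiescent ones, 28.1, 32.1 and 27.1 after irradiation and 78.3, 90.1 and 76.4 after etoposide, with no overlap between the cycling and any other of these states. They rose by 0.92 after etoposide (SE 0.18, adjusted p = 0.00117), and fell by 1.08 in quiescence (SE 0.18, adjusted p = 0.00125) and by 0.57 after irradiation (SE 0.19, adjusted p = 0.0267). The irradiated call was lost without cycling replicate 2 or 3 or irradiated replicate 1 or 3 (0.0703 to 0.0998).

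TNFRSF10B (DR5) and TNFRSF10A (DR4) are the signalling receptors of the death ligand TRAIL. TNFRSF10B RNA stood at 166 and 172 CPM in cycling libraries, 99, 128 and 129 in quiescent ones, 120, 135 and 122 after irradiation, 211, 232 and 237 after etoposide and 134 and 143 under thapsigargin. Quiescent and irradiated libraries were all below the cycling ones and etoposide libraries all above. It was lower in quiescence (log2 -0.51, SE 0.12, adjusted p = 0.0142) and after irradiation (log2 -0.43, SE 0.12, adjusted p = 0.0165), and higher after etoposide (log2 0.42, SE 0.13, adjusted p = 0.0194). Without cycling replicate 1 or 2 the quiescent adjusted p was 0.0822 and 0.0966. The irradiated call was lost in each fit except that without irradiated replicate 2 (0.0562 to 0.0969), and the etoposide call in each except that without etoposide replicate 1 (0.0563 to 0.126). TNFRSF10B footprints fell by 1.15 in quiescence and by 1.23 after irradiation (adjusted p = 0.00594 and 0.00226), with 0.18 after etoposide (adjusted p = 0.624). The quiescent footprint libraries stood at 31.5, 73.1 and 77.2 CPM, and without quiescent replicate 1, the lowest, the value was -0.82 (adjusted p = 0.000812).

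TNFRSF10A RNA was low, at 4.78 and 3.37 CPM in cycling libraries, 2.51, 2.72 and 3.39 in quiescent ones, 3.26, 3.91 and 2.24 after irradiation, 5.91, 6.76 and 5.69 after etoposide and 6.8 and 5.6 under thapsigargin. No comparison of it with cycling cells passed the test. TNFRSF10C, a decoy TRAIL receptor without a death domain, had 0.913 and 0.363 CPM in cycling libraries, 0.561, 0.34 and 0.484 in quiescent ones, 1.44, 1.17 and 0.983 after irradiation, 4.23, 4.31 and 4.05 after etoposide and 1.17 and 0.949 under thapsigargin in RNA. Its etoposide libraries stood clear of the rest. The rise after etoposide was 6.29-fold (log2 2.65, SE 0.36, adjusted p = 8.04e-05) in RNA and 7.1-fold (log2 2.83, SE 0.37, adjusted p = 5.56e-05) in footprints. The cycling RNA values rest on 25 and 7 counts, and the RNA log2 value was 3.51 without cycling replicate 1 and 2.20 without replicate 2. EDA2R, the receptor of ectodysplasin A2, had 32.3 and 30.5 CPM in cycling libraries, 32.2, 32.1 and 36.1 in quiescent ones, 33.8, 38.6 and 33.6 after irradiation and 45.1, 45.3 and 41.3 after etoposide in RNA, and rose after etoposide (log2 0.48, SE 0.12, adjusted p = 0.00738, but 0.0719 without cycling replicate 2).

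Of the 7 intracellular genes of death and survival, CDIP1, TP53INP1 and SPATA18 rose in RNA in both senescent states, as 10.3% of all genes did. PERP, AEN, PHLDA3 and TRIAP1 were called in neither. TP53INP1, a nuclear and autophagy protein that assists p53 phosphorylation, stood at 78.2 and 82.6 CPM in cycling libraries, 173, 172 and 155 in quiescent ones, 218, 200 and 234 after irradiation, 160, 171 and 179 after etoposide and 64.4 and 68.3 under thapsigargin in RNA. All arrested libraries were above the cycling ones, the quiescent and etoposide ranges overlapped, and the irradiated libraries were the highest. It was 2.07-fold higher in quiescence (log2 1.05, SE 0.11, adjusted p = 0.000218), 2.7-fold after irradiation (log2 1.43, SE 0.11, adjusted p = 7.3e-07) and 2.12-fold after etoposide (log2 1.08, SE 0.11, adjusted p = 6.8e-06). Footprints rose by 1.08, 1.59 and 1.18 in the same order.

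SPATA18, a regulator of mitochondrial quality, had 22.3 and 24.3 CPM in cycling libraries, 35, 37.9 and 33.3 in quiescent ones, 54, 54.2 and 60.3 after irradiation, 62.2, 60.4 and 61.4 after etoposide and 43.7 and 41.1 under thapsigargin in RNA. The 4 arrested or treated states were all above cycling. The log2 fold change was 1.27 after irradiation (SE 0.12, adjusted p = 2.96e-06), 1.40 after etoposide (SE 0.12, adjusted p = 9.88e-07) and 0.60 in quiescence (SE 0.11, adjusted p = 0.00365, but 0.063 without cycling replicate 1). CDIP1, a pro-apoptotic p53 effector, had 20.9 and 26.3 CPM in cycling libraries, 28.2, 30.9 and 23.1 in quiescent ones, 55.6, 53.1 and 50.1 after irradiation, 44.7, 53.2 and 54.2 after etoposide and 42.9 and 50.9 under thapsigargin in RNA. Quiescent and cycling libraries overlapped, and the other 3 states were above both. CDIP1 rose 2.25-fold after irradiation and 2.15-fold after etoposide (log2 1.17 and 1.10, SE 0.16 each, adjusted p = 0.000106 and 0.000153).

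PERP, a tetraspan membrane protein of desmosomes and p53-dependent death, had 167 and 183 CPM in cycling libraries, 92.1, 106 and 123 in quiescent ones, 145, 154 and 146 after irradiation, 240, 232 and 199 after etoposide and 219 and 175 under thapsigargin in RNA. Quiescent and irradiated libraries were below the cycling ones and etoposide libraries above them. Only the quiescent difference from cycling passed the test (log2 -0.71, SE 0.14, adjusted p = 0.00418, but 0.0516 without cycling replicate 2). Footprints of PERP fell by 1.25 in quiescence (adjusted p = 0.0105, but 0.0526 without cycling replicate 3). The quiescent footprint libraries of PERP stood at 21.8, 50.7 and 72.6 CPM against 98.2, 105 and 141 in cycling ones, and without quiescent replicate 1, the lowest here as for TNFRSF10B, the value was -0.88 (adjusted p = 0.00302). PHLDA3, an inhibitor of AKT at the membrane, had RNA values of 0.58 after irradiation and 0.49 after etoposide that did not pass the test, and its footprints rose after etoposide (0.91, adjusted p = 0.0289). That call was lost in each fit without 1 library except that without cycling replicate 1 (0.0587 to 0.115). AEN, a p53-induced nuclease, and TRIAP1, a mitochondrial inhibitor of apoptosis, ranged from -0.02 to 0.29 in RNA in the 2 senescent states.

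All 6 metabolism and redox genes rose after etoposide in RNA (16.8% of all genes), and 5 rose after irradiation (16.2% of all genes). TIGAR, which lowers the glycolytic signal fructose 2,6-bisphosphate, stood at 8.65 and 13.1 CPM in cycling libraries, 21.7, 21.1 and 22.2 in quiescent ones, 38.2, 31.6 and 36.5 after irradiation, 31.5, 36.8 and 43 after etoposide and 15.3 and 20.9 under thapsigargin in RNA. The cycling libraries were below all others, and the senescent ones were the highest. TIGAR was 3.27-fold higher after irradiation (log2 1.71, SE 0.21, adjusted p = 3.38e-05), 3.43-fold after etoposide (log2 1.78, SE 0.21, adjusted p = 2.3e-05) and 2-fold in quiescence (log2 1.00, SE 0.20, adjusted p = 0.00522, but 0.0991 without cycling replicate 1). Its footprints were 9.53, 7.57 and 9.18 CPM in cycling libraries, 11.2, 9.82 and 15.7 in quiescent ones, 10.4, 14 and 19.4 after irradiation and 14, 14.3 and 21.3 after etoposide, so the footprint ranges were closer together than the RNA ranges. The footprint log2 values were 0.72 after irradiation (adjusted p = 0.0608) and 0.92 after etoposide (adjusted p = 0.0186, but 0.0723 without cycling replicate 2 and 0.103 without etoposide replicate 3). Footprints per RNA of TIGAR had log2 values of -0.87 and -0.90 in those states, which did not pass the test (adjusted p = 0.66 and 1). With only the cycling and irradiated libraries in the fit, the first was -1.02 and passed (adjusted p = 0.0357).

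FDXR, the mitochondrial reductase of ferredoxin, had 16.1 and 18.3 CPM in cycling libraries, 28.5, 22.7 and 16.7 in quiescent ones, 31.8, 41.8 and 30.3 after irradiation, 38.7, 39.5 and 43.5 after etoposide and 19.8 and 21.3 under thapsigargin in RNA. The senescent libraries were above all cycling and quiescent ones. It rose 2.02-fold after irradiation and 2.37-fold after etoposide (log2 1.01 and 1.24, SE 0.21 each, adjusted p = 0.00192 and 0.000461). TP53I3, a quinone oxidoreductase, had 43 and 52.6 CPM in cycling libraries, 66, 61.5 and 55.2 in quiescent ones, 65.2, 82.1 and 70.7 after irradiation, 79.5, 82.1 and 80.4 after etoposide and 43.6 and 41.1 under thapsigargin in RNA. All arrested libraries were above the cycling ones. The log2 fold change was 0.61 after irradiation (SE 0.13, adjusted p = 0.00325, but 0.0678 without cycling replicate 1) and 0.76 after etoposide (SE 0.13, adjusted p = 0.000718).

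SESN1, a sestrin that restrains mTORC1, had 29.9 and 34.7 CPM in cycling libraries, 44.7, 38.9 and 41.5 in quiescent ones, 47.8, 55.3 and 53 after irradiation, 49.3, 46.4 and 47.1 after etoposide and 18.1 and 13.5 under thapsigargin in RNA. Arrested libraries were all above the cycling ones and thapsigargin libraries below them. SESN1 RNA rose after irradiation (log2 0.69, SE 0.14, adjusted p = 0.00208) and after etoposide (log2 0.56, SE 0.14, adjusted p = 0.0078, but 0.107 without cycling replicate 1). The footprint rise after irradiation (0.87, adjusted p = 0.0262) was lost without cycling replicate 1 or 3 or irradiated replicate 1 or 3 (0.0652 to 0.0947). CMBL, a hydrolase, had 17.8 and 18.5 CPM in cycling libraries, 29.1, 24.9 and 21.2 in quiescent ones, 37.6, 38.9 and 36.5 after irradiation, 23.2, 33.5 and 41.9 after etoposide and 15.2 and 29.5 under thapsigargin in RNA. Each arrested library was above the cycling ones, with a wide spread after etoposide. The log2 fold change was 1.05 after irradiation (SE 0.27, adjusted p = 0.00891, but 0.0726 and 0.0539 without cycling replicate 1 or 2) and 0.86 after etoposide (SE 0.27, adjusted p = 0.026), the latter lost in each fit except that without etoposide replicate 1 (0.0595 to 0.141).

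ACER2, a Golgi ceramidase, was rare, with 1.83 and 3.22 CPM in cycling libraries, 1.8, 2.15 and 1.25 in quiescent ones, 3.11, 2.93 and 3.03 after irradiation, 6.71, 6.67 and 7.34 after etoposide and 1.78 and 1.7 under thapsigargin in RNA. Only the etoposide libraries were clear of the others. It rose 2.78-fold after etoposide in RNA (log2 1.47, SE 0.27, adjusted p = 0.00082). Its footprints rose by 1.61 (adjusted p = 0.0193), a call lost without cycling replicate 1 (0.0766) or etoposide replicate 1 (0.0714) or 2 (0.0674).

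GDF15, a secreted stress cytokine, showed a wide gap between the inducers. It stood at 20.2 and 16.3 CPM in cycling libraries, 20.6, 23.6 and 20.7 in quiescent ones, 33, 41.1 and 28.9 after irradiation, 84.1, 95.7 and 102 after etoposide and 34.5 and 36.1 under thapsigargin in RNA. Irradiated libraries were above the cycling ones, and etoposide libraries were above all others. GDF15 RNA was 5.13-fold higher after etoposide (log2 2.36, SE 0.17, adjusted p = 2.72e-07) and 1.88-fold higher after irradiation (log2 0.91, SE 0.16, adjusted p = 0.000813). Its footprints were 81.3, 55.8 and 65.2 CPM in cycling libraries, 84.3, 108 and 104 after irradiation and 363, 375 and 388 after etoposide, with an irradiated log2 value of 0.55 that did not pass the test (adjusted p = 0.179).

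FBXO22, the substrate receptor of a ubiquitin ligase that acts on p53, had 69.8 and 64 CPM in cycling libraries, 82.2, 73 and 83.3 in quiescent ones, 89.9, 103 and 98.8 after irradiation, 114, 108 and 107 after etoposide and 72.8 and 52.4 under thapsigargin in RNA. Without thapsigargin the order was cycling, quiescent, irradiated and etoposide, with no overlap between neighbours. It rose after irradiation (log2 0.54, SE 0.14, adjusted p = 0.0083, but 0.0815 without cycling replicate 2) and after etoposide (log2 0.71, SE 0.14, adjusted p = 0.00146). RPS27L, a ribosomal protein paralogue, and BLOC1S2, a subunit of a lysosome positioning complex, were called in RNA in neither senescent state, and footprints of both rose after irradiation (log2 0.70 and 0.45, adjusted p = 0.00254 and 0.00939). RPS27L resembles RPS27 in sequence, so reads can be shared between them.

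Irradiation and etoposide, compared directly, differed in 11 members in RNA: 9 were lower after irradiation and 2 higher, where 22.6% of all genes were called (9.68% higher and 12.9% lower). In footprints 7 were lower and 1 higher (21.7% of all genes, with 7.77% higher and 13.9% lower). The members lower in both assays were ACER2, FAS, GDF15, PERP, PLK3, TNFRSF10B and TNFRSF10C. The RNA log2 differences, irradiated minus etoposide, were -1.80 for TNFRSF10C (SE 0.29, adjusted p = 0.000736), -1.45 for GDF15 (SE 0.14, adjusted p = 5.78e-05), -1.19 for ACER2 (SE 0.22, adjusted p = 0.00212) and -0.96 for TNFRSF10A (SE 0.22, adjusted p = 0.00741). They were -0.85 for TNFRSF10B (SE 0.11, adjusted p = 0.000275), -0.83 for FAS (SE 0.15, adjusted p = 0.00142) and -0.60 for PERP (SE 0.13, adjusted p = 0.00428). These 7 genes had passed the test on the same libraries, and for each the irradiated and etoposide RNA libraries did not overlap. Among the members, 14 had all irradiated RNA libraries below all etoposide ones and 4 had them above. Of all genes, 21.8% and 26.6% separated in these ways. The calls of the 7 held in all 6 fits that left out 1 library.

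In contrast, MDM2, BTG2, CDIP1 and TIGAR differed between the inducers by log2 values of 0.01, 0.04, 0.06 and -0.07 in RNA, none of which passed the test. PLK2 (-0.44, adjusted p = 0.0246) and PLK3 (-0.43, adjusted p = 0.0478) were lower after irradiation, and TP53INP1 (0.35, adjusted p = 0.0179) and PPM1D (0.33, adjusted p = 0.0323) were higher. These 4 calls were weak: PLK2 and PPM1D lost theirs in each of the 6 fits without 1 library (0.0536 to 0.0903 and 0.0547 to 0.127). PLK3 lost its call in each except that without etoposide replicate 1 (0.0999 to 0.163), and TP53INP1 without irradiated replicate 1 (0.0613) or 3 (0.091) or etoposide replicate 1 (0.0741) or 2 (0.061).

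**Figure D3:**
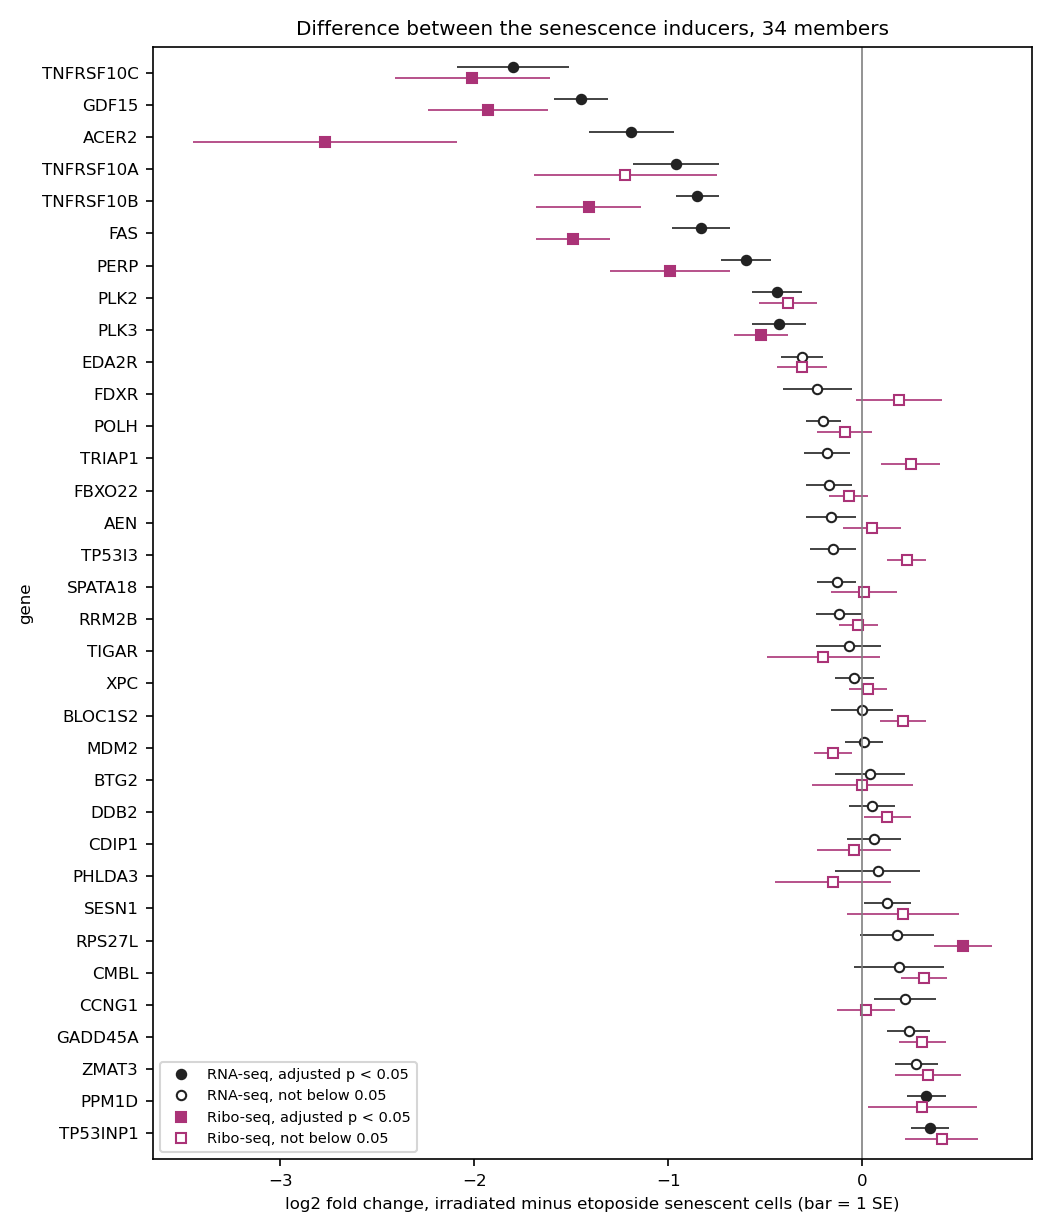
Log2 fold change of irradiated minus etoposide senescent cells for the 34 genes, sorted by the RNA value, with bars of 1 SE. Circles are RNA-seq and squares Ribo-seq, filled at an edgeR adjusted p under 0.05. The 7 genes at the top run from -1.80 to -0.60 in RNA, while most other genes lie near 0.

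In footprints the same contrast was -2.77 for ACER2 (SE 0.68, adjusted p = 0.0109), -2.01 for TNFRSF10C (SE 0.40, adjusted p = 0.00304), -1.93 for GDF15 (SE 0.31, adjusted p = 0.00115), -1.49 for FAS (SE 0.19, adjusted p = 0.000301) and -1.41 for TNFRSF10B (SE 0.27, adjusted p = 0.00243). PERP (-0.99, adjusted p = 0.0347) lost its call in each of 6 fits without 1 library (0.055 to 0.136). PLK3 (-0.52, adjusted p = 0.0155) lost its call without irradiated replicate 1 (0.0788) or 2 (0.052) or etoposide replicate 2 (0.0502) or 3 (0.0501). RPS27L was higher after irradiation (0.52, adjusted p = 0.026), a call lost in each fit except that without etoposide replicate 3 (0.0526 to 0.11). The ACER2 value rests on 3, 2 and 0 counts after irradiation and 20, 21 and 12 after etoposide. For footprints per RNA, 0 members were called between the inducers by edgeR in the model of all 5 states and 0 by DESeq2, with 3 at an unadjusted p under 0.05. An edgeR fit of only these 2 states called FAS (-0.68, adjusted p = 0.00854) and TNFRSF10B (-0.57, adjusted p = 0.014) lower after irradiation.

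Most of the members that were lower after irradiation than after etoposide encode proteins of the secretory route. Of the 34 members, 8 encode proteins that enter the endoplasmic reticulum to be secreted or placed in membranes (FAS, TNFRSF10A, TNFRSF10B, TNFRSF10C, EDA2R, PERP, ACER2 and GDF15), a grouping made after the values were seen and therefore not tested. In RNA, 7 of these 8 were lower after irradiation than after etoposide, with EDA2R at -0.31 (adjusted p = 0.051), whereas 2 of the other 26 were lower and 2 higher. Of all genes, 12.9% were called lower and 9.68% higher there. The median log2 difference was -0.91 for the 8 and 0.01 for the 26 in RNA, and -1.45 and 0.04 in footprints, where 6 of 8 and 1 of 26 were lower (13.9% of all genes). Against cycling cells, 0 of the 8 and 9 of the 26 rose in quiescence in RNA (5.18% of all genes), and 1 of the 8 and 17 of the 26 rose after irradiation (16.2%). After etoposide 6 of the 8 and 19 of the 26 rose (16.8%). The share among secretory-route genes in general was not measured. The RNA of both assays came from 1 detergent lysate per sample, according to the labels' protocols, and HSPA5, the main chaperone of the endoplasmic reticulum, had an RNA difference of -1.56 between the inducers (adjusted p = 0.012). HSPA5 footprints stood at 320, 369 and 320 CPM after irradiation and 1170, 1250 and 1110 after etoposide. In quiescent libraries they were 291, 740 and 891 CPM, so they also differed between libraries of 1 state. The part of the lysate and of HSPA5 in these differences was not tested.

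**Figure D4:**
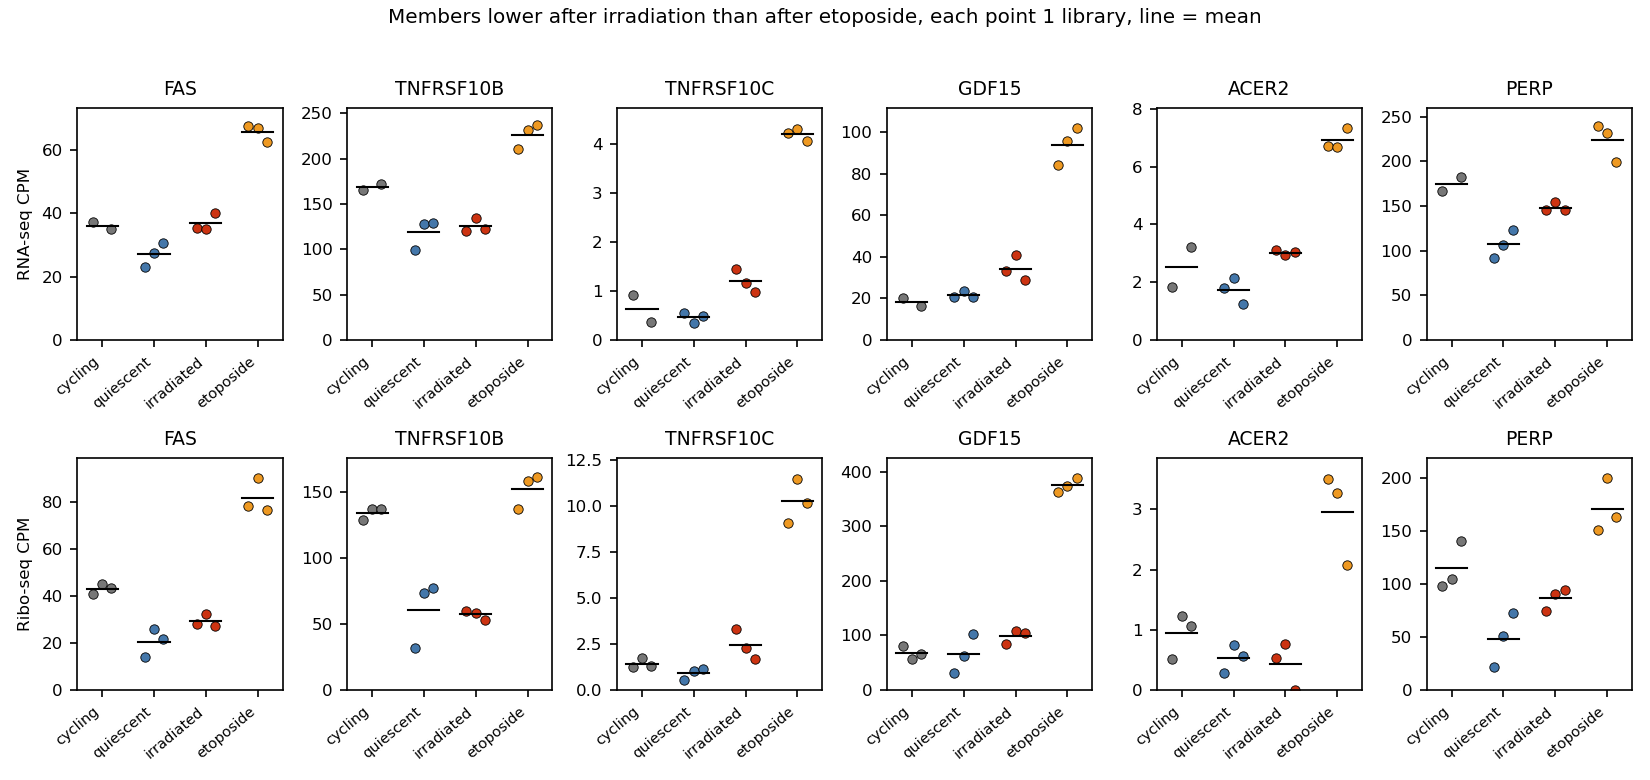
Level in TMM-normalised CPM (linear axes from 0) of 6 genes in each library of 4 states, in RNA-seq (upper row) and Ribo-seq (lower row), with the mean as a line. The etoposide libraries are above the irradiated ones in all 12 panels, and the irradiated libraries of TNFRSF10B and PERP lie below the cycling ones in both rows.

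Senescent cells, taken as the mean of both inducers, were set against quiescent cells, which are also arrested but had no DNA damage applied. In RNA 22 members were higher in senescence and 1 lower (34.2% of all genes called, 16.6% higher and 17.6% lower), with a median of 0.45 against 0.00 over all genes. In footprints 13 were higher and 0 lower (25.9%, with 12.4% higher and 13.6% lower). RRM2B (0.95), CDIP1 (0.92), GADD45A (0.87), FDXR (0.73), SPATA18 (0.73), BTG2 (0.69) and MDM2 (0.69) were among the 14 genes that rose in both senescent states and stood above quiescence in RNA. Over all genes 10.3% rose in both senescent states in RNA, and the share that also stood above quiescence was not measured. TP53INP1 (0.21, adjusted p = 0.0716) and PPM1D (-0.00, adjusted p = 0.975) did not pass the test. Of the 23 RNA calls, 16 held in each of 9 fits without 1 library. Those of TRIAP1, FBXO22 and TP53I3 were lost without quiescent replicate 2 (adjusted p 0.0761, 0.0735 and 0.0614), that of TP53I3 also without quiescent replicate 3 (0.0889) or irradiated replicate 2 (0.0543). The call of PLK2, lower at -0.32, was lost in each fit except that without quiescent replicate 2 (0.0542 to 0.165). XPC (0.24) and BLOC1S2 (0.40) lost their calls in 7 of the 9 fits (up to 0.19 and 0.191), and TNFRSF10A (0.61) in 5 (up to 0.108). Of the 13 footprint calls 10 held, and those of BTG2, FDXR and CMBL were lost, each among others without quiescent replicate 2 (0.134, 0.097 and 0.112).

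Footprints per RNA, a measure of ribosome load on each transcript, gave no member that passed the test in any comparison without thapsigargin, by edgeR in the model of all 5 states or by DESeq2. A fit of only the cycling and irradiated libraries called TNFRSF10B (-0.81, adjusted p = 0.000729), FAS (-0.61, adjusted p = 0.023) and TIGAR lower and GADD45A higher after irradiation. At an unadjusted p under 0.05 there were 2 members in quiescence, 5 after irradiation, 3 after etoposide and 3 between senescence and quiescence. Over all 11713 genes 0.00854%, 0.0512%, 0.0683% and 0.0427% were called in those comparisons, so the test found few genes of any kind. In simulated data of this size it recovered 30.5% of genes whose ratio was doubled in irradiated cells, against 77.5% in RNA and 70.5% in footprints alone, so changes of that size in members can go undetected.

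In the thapsigargin libraries 8 members were higher and 4 lower in RNA than in cycling ones, where 24.5% of all genes were called. GADD45A and PLK3 rose most in RNA, at 4.38-fold (log2 2.13, SE 0.14, adjusted p = 6.78e-07) and 2.9-fold (log2 1.54, SE 0.18, adjusted p = 5.95e-05), and SESN1 fell most (log2 -1.03, SE 0.16, adjusted p = 0.000417). CDIP1 (0.99), GDF15 (0.95), SPATA18 (0.86), AEN (0.85), TIGAR (0.74) and EDA2R (0.55) also rose, and PLK2 (-0.74), XPC (-0.59) and TRIAP1 (-0.45) were lower. MDM2 was at 0.08 (adjusted p = 0.668). The call of TIGAR was lost without cycling replicate 1 (0.47, adjusted p = 0.235) or thapsigargin replicate 2 (0.143), that of EDA2R without cycling replicate 2 (0.0752) and that of PLK2 without cycling replicate 2 (0.0641). That of TRIAP1 was lost without cycling replicate 1 (0.191) or 2 (0.0892) or thapsigargin replicate 2 (0.175).

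In footprints 11 members were called higher and 4 lower under thapsigargin, where 44.4% of all genes were called (20% higher and 24.4% lower). TIGAR rose from 9.53, 7.57 and 9.18 CPM in the cycling libraries to 39.2 and 61.6 under thapsigargin. EDA2R rose from 25.4, 23.4 and 25.5 to 84.5 and 96.6 CPM. GADD45A rose from 64.6, 49.5 and 62.5 to 348 and 299 CPM. For these 3 genes each treated library was more than any cycling library by a wide margin, and the rises were 5.77-fold, 3.66-fold and 5.5-fold (adjusted p = 3.13e-05, 6.1e-07 and 3.06e-08). PLK3 footprints went from 32.3, 22.8 and 24.4 to 101 and 91.3 CPM, CDIP1 from 12, 11 and 15.8 to 28.9 and 31.8, and PHLDA3 from 53.6, 24.6 and 31.1 to 134 and 100. Their rises were 3.64-fold, 2.36-fold and 3.23-fold (adjusted p = 1.23e-06, 0.000843 and 0.00134). FBXO22 footprints went from 71.1, 71.2 and 67.1 to 134 and 153 CPM (2.06-fold, adjusted p = 1.3e-05), while its RNA did not pass the test (-0.10, adjusted p = 0.677). DDB2, RRM2B and BLOC1S2 were also called higher in footprints, and BLOC1S2 lost its call in 1 or more fits without 1 library.

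SESN1 footprints went from 17.8, 23.9 and 19.6 CPM in the cycling libraries to 1.09 and 10.4 under thapsigargin. The treated values rest on 2 and 20 counts and differ from each other by more than the cycling libraries do. The log2 fold change of -1.81 (SE 0.46, adjusted p = 0.00626) was -0.95 without thapsigargin Ribo-seq replicate 1 (adjusted p = 0.0504). ACER2 had 0 counts in both treated footprint libraries, and TNFRSF10C had 0 and 3, so no fold is given for either. PLK2 (-0.63), TNFRSF10B (-0.95) and TRIAP1 (-0.55) were the other members called lower. TNFRSF10B lost its call without cycling replicate 2 (0.0503) or 3 (0.0524) or without thapsigargin replicate 1 (0.229, log2 -0.61), PLK2 without thapsigargin replicate 2 (0.0934), and TRIAP1 in each fit except that without cycling replicate 1 (0.056 to 0.148).

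Footprints per RNA rose under thapsigargin for 5 members and fell for 0, where 20.7% of all genes were called (7.86% higher and 12.9% lower, all-gene median -0.15). TIGAR led with 3.4-fold (log2 1.76, SE 0.38, adjusted p = 0.00231), followed by EDA2R with 2.46-fold (log2 1.30, SE 0.19, adjusted p = 5.55e-05) and FBXO22 with 2.16-fold (log2 1.11, SE 0.21, adjusted p = 0.000711). PHLDA3 (2.56-fold, adjusted p = 0.0345) lost its call in 6 of 9 fits without 1 library, those without either cycling RNA library, cycling Ribo-seq replicate 2 or 3, or thapsigargin replicate 1 of either assay (0.0688 to 0.134). It was also lost with the replicate number as a block (0.0918), without a filter on low counts (0.0917) and with only the groups compared in the fit (0.0766). TP53INP1 (log2 1.03, SE 0.26, adjusted p = 0.0077) lost its call without thapsigargin Ribo-seq replicate 1 (0.58, adjusted p = 0.153) and with only the groups compared (1.00, adjusted p = 0.117). TP53INP1 footprints stood at 17.5, 27 and 27 CPM in the cycling and 52.9 and 29.8 in the treated libraries, with a log2 fold change of 0.79 (adjusted p = 0.0145) that was 0.34 without thapsigargin replicate 1 (adjusted p = 0.306). With reads of both strands counted it turned to -1.12 (adjusted p = 0.0232). The direction for TP53INP1 therefore depends on the strand counted. Gene counts do not separate footprints of the coding region from those of the leader, and which of them rose was not tested.

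**Figure D5:**
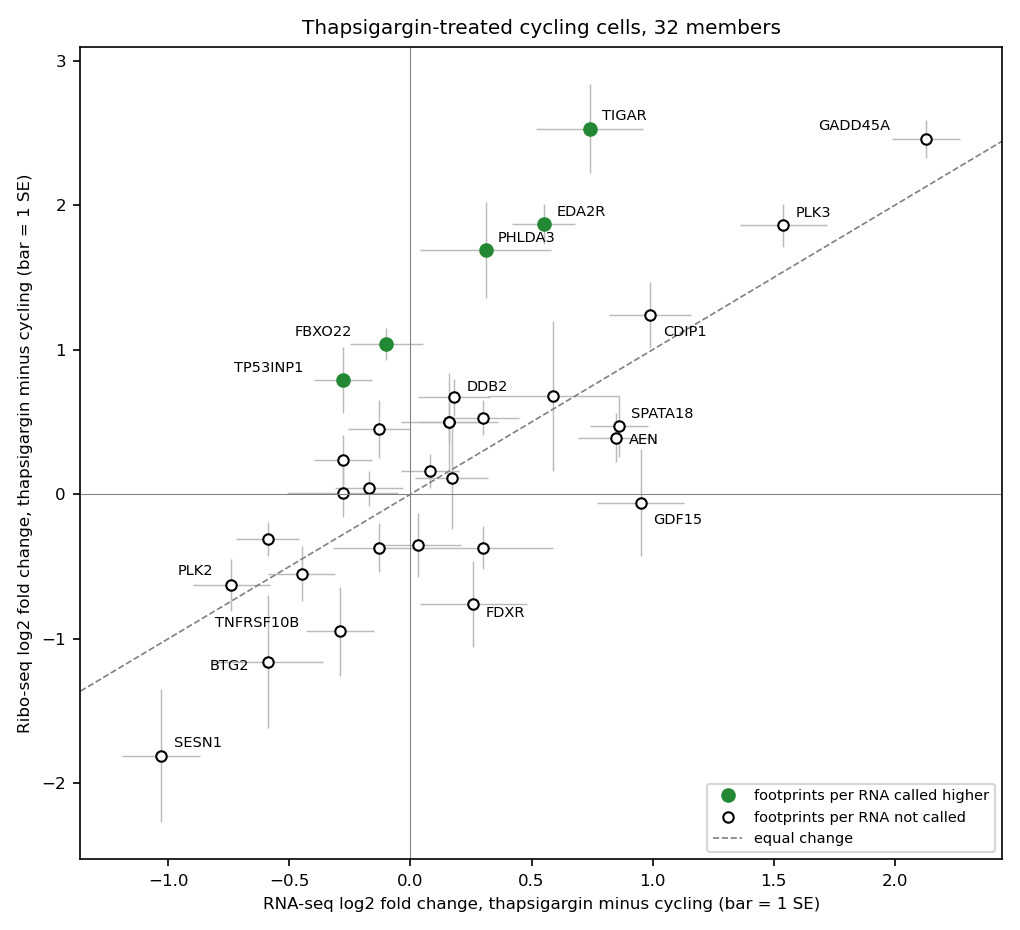
Log2 fold change of thapsigargin-treated minus untreated cycling cells in RNA-seq (horizontal) and Ribo-seq (vertical) for 32 genes, with bars of 1 SE and a dashed line of equal change. ACER2 and TNFRSF10C, with 0 to 3 footprint counts, are left out. The 5 genes called higher in footprints per RNA (green) lie above the line, and GADD45A and PLK3 lie near it at the upper right.

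The other genes of the pathway were read from lists made with earlier results of these data known. Of 20 regulators of p53, 2 rose and 1 fell in RNA after irradiation, and 1 rose and 5 fell after etoposide, where 34.9% and 34.5% of all genes were called. MDM4, the partner of MDM2 in restraining p53, fell by 0.79 after etoposide in RNA (SE 0.14, adjusted p = 0.000823), and its footprints fell by 1.05 after irradiation and by 1.47 after etoposide (adjusted p = 0.00087 and 5.27e-05). CHEK1, a replication checkpoint kinase, fell by 1.23 and by 1.38 in RNA.

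Of 28 further p53 targets, 11 rose and 4 fell in RNA after irradiation, and 18 rose and 3 fell after etoposide, against the same 34.9% and 34.5% of all genes (16.2% and 16.8% higher). CDKN1A, the cyclin-dependent kinase inhibitor p21, stood at 775 and 824 CPM in cycling libraries, 1230, 1140 and 843 in quiescent ones, 2450, 2860 and 2430 after irradiation and 2870, 3180 and 3150 after etoposide in RNA. Both senescent states were above all other libraries, with log2 fold changes of 1.69 and 1.94 (SE 0.16 each, adjusted p = 3.23e-06 and 7.84e-07). The death effectors BAX, BBC3 and PMAIP1 moved less: BAX was at -0.09 and -0.14, BBC3 at 0.73 (adjusted p = 0.0375) and 0.18, and PMAIP1 at 0.22 and 0.69 (adjusted p = 0.0434). Under thapsigargin 9 of the 28 rose and 1 fell, against 24.5% of all genes, with PMAIP1 at 1.39. ATF4 and DDIT3, factors of the integrated stress response, were at 0.76 and 3.44 in RNA under thapsigargin (adjusted p = 0.000461 and 6.31e-08), and 7 of 8 stress response genes rose.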

How the data were processed

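Per the submitters' processing notes, reads were aligned with STAR 2.7.10b to hg38, and the authors deposited raw counts of reads per gene for each library. Raw counts were used as deposited, from the reverse-strand column for RNA-seq (a stranded kit, per the labels' protocols) and the forward-strand column for Ribo-seq. Rows that name no gene were left out, and 60534 identifiers shared by both gene lists were kept. The test of raw counts was that of edgeR 4.0.16, run under R 4.3.3 (TMM scaling, the low-count filter filterByExpr, robust quasi-likelihood F test) in 1 model of all 5 states per assay, on protein-coding genes, with Benjamini-Hochberg adjustment over all genes tested. A gene was called at an adjusted p under 0.05. Footprints per RNA were tested as the interaction of assay and state over 27 libraries. The standard error is the log2 fold change divided by the square root of F. The fits were tested on simulated data. DESeq2 1.42.0, other scalings, filters and strands, the replicate number as a block and leaving out each library were alternatives. Same-numbered libraries deviated together (every correlation over 0.1) for quiescent with cycling footprints (0.15, 0.27 and 0.26) and for RNA with footprints after etoposide (0.13, 0.38 and 0.20), and not in the other comparisons with 3 pairs. The RNA value of every library is printed for members called in RNA in both senescent states or between the inducers. It is also printed for those called in footprints per RNA, or by at least 1 on the log2 scale under thapsigargin. A few that the text contrasts with them have such values too. Exceptions are PHLDA3, without RNA values by library, and EDA2R and DDB2, without their thapsigargin RNA values. Other pathway genes named are MDM4, CDKN1A, BAX, BBC3, PMAIP1, ATF4, DDIT3 and those called in RNA with a log2 change of at least 1, and a few footprint values were chosen after they were seen. The members and lists were chosen with earlier results of these data known, and the grouping by secretory route after the values were seen. One gene that the rule for named genes holds is not reported here.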

Additional observations from a re-analysis of the deposited data

Results flagged for a closer look

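The 2 inducers of senescence were compared directly, and members whose difference passed the edgeR test are listed here with the log2 value of irradiated minus etoposide cells. In RNA, the members lower after irradiation were TNFRSF10C (-1.80), GDF15 (-1.45), ACER2 (-1.19), TNFRSF10A (-0.96), TNFRSF10B (-0.85), FAS (-0.83), PERP (-0.60), PLK2 (-0.44) and PLK3 (-0.43). TP53INP1 (0.35) and PPM1D (0.33) were higher. In footprints, ACER2 (-2.77, on 0 to 3 counts per irradiated library), TNFRSF10C (-2.01), GDF15 (-1.93), FAS (-1.49), TNFRSF10B (-1.41), PERP (-0.99) and PLK3 (-0.52) were lower and RPS27L (0.52) was higher. Each group had 3 libraries per assay.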

How the results depend on the processing

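The counts of called members stayed within 1.5 times of those reported under RLE size factors, no filter on low counts and counts of both strands, and under DESeq2 except for footprints per RNA under thapsigargin (9). With only the groups compared in the fit, the number of members called was 4 for quiescent RNA, 7 for thapsigargin RNA, 14 for footprints between the inducers, and for footprints per RNA 4 after irradiation, 3 under thapsigargin and 2 between the inducers. Leaving out 1 library gave 3 to 11 members for quiescent RNA, 7 to 9 for RNA and 5 to 7 for footprints between the inducers, and 4 to 11 for footprints per RNA under thapsigargin. The cause was not tested. TP53INP1 reversed with both strands counted, to -1.12 in thapsigargin footprints and -0.85 in footprints per RNA. PPM1D reversed there without thapsigargin Ribo-seq replicate 1, to -0.70 and -0.89, against 1.18 and 0.96 without replicate 2. With the replicate number as a block, 13 members were called in quiescent footprints, as without it, BTG2 gaining and PLK2 losing its call, and 4 in footprints per RNA under thapsigargin, PHLDA3 losing its call. The block changed no other call of a member in those comparisons or in footprints per RNA. In the comparisons whose numbers do not pair the libraries, 10 members were called in quiescent RNA and 23 in etoposide RNA under the block. Depth limits the rare genes ACER2 and TNFRSF10C and all thapsigargin footprints most.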

Other observations

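The division by secretory route among the 34 members was also present among the 28 further p53 targets, of which 13 encode proteins that enter the endoplasmic reticulum. In RNA, 9 of these 13 were lower after irradiation than after etoposide and 0 were higher, with a median log2 difference of -0.71. Of the other 15, 0 were lower and 2 higher, with a median of -0.05. In footprints 10 of the 13 were lower, with a median of -1.56, against 2 of the 15, with a median of 0.03. Of all genes, 12.9% were lower in RNA and 13.9% in footprints. The genes concerned include TNFRSF10D, a decoy TRAIL receptor (-2.09 in RNA), CD82, a tetraspanin (-1.60), FUCA1, a lysosomal fucosidase (-1.52), and LIF, a secreted cytokine (-1.04). The grouping was made after the values were seen, so no test is given.

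STEAP3, a membrane metalloreductase, was the further target that was lower in all 3 arrested states in RNA, at -1.05 in quiescence, -1.73 after irradiation and -1.34 after etoposide (edgeR adjusted p = 0.00281, 1.4e-05 and 0.000108). SESN2, a sestrin like SESN1, rose by 2.52 under thapsigargin (adjusted p = 4.48e-07), where SESN1 was at -1.03. MDM4 footprints rose by 1.44 under thapsigargin (adjusted p = 0.000101), with RNA at 0.19 (adjusted p = 0.42).

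Other pathway genes called with a log2 change of at least 1 in RNA against cycling cells were mostly higher in senescence. TRIM22, an interferon-inducible ligase, was at 1.21 after irradiation and 1.34 after etoposide, PIDD1, a scaffold of caspase-2, at 1.38 and 1.32, and CYFIP2, a regulator of actin, at 1.38 and 1.50, with 1.07 under thapsigargin. HIPK2, a p53 kinase, was at 1.30 and SESN2 at 1.12 after irradiation, and DRAM1, an autophagy regulator, at 1.33, TNFRSF10D at 1.50 and CD82 at 1.69 after etoposide. Under thapsigargin KITLG, the KIT ligand, was at 1.96, LIF at 1.04 and TNFRSF10D at -1.92. The stress response genes ATF3 (3.16), CHAC1 (2.76), PPP1R15A (2.33), TRIB3 (2.12) and HSPA5 (1.50) rose under thapsigargin, and ATF3 was also at 1.41 after irradiation and 1.95 after etoposide. DDIT3 RNA stood at 41.5 and 39.6 CPM in cycling libraries, 85.8, 108 and 92.1 after irradiation and 68.5, 68.3 and 77 after etoposide. Of the 8 stress response genes, 4 rose in RNA after irradiation and 3 after etoposide (16.2% and 16.8% of all genes). In footprints 6 rose and 1 fell after irradiation (17.2% and 22.6% of all genes).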
